A study of Danio rerio with 9 samples.

Results

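The transcriptome of heads from germ-free (GF) zebrafish larvae was compared with that of heads from larvae exposed to microbial or gut-derived molecules, with the 3 GF samples on one side and 6 samples on the other, which makes up all 9 samples of the series. The 6 were 3 samples of GF larvae given zebrafish metabolites (ZM) and 3 samples of conventionally raised larvae (CV). All larvae were wild type of the Tubingen strain at the long-pec stage, about 2 days after fertilization, and each sample was poly(A) RNA from a pool of 5 heads cut off at the base of the hindbrain. GF embryos had been soaked in the antibiotic gentamicin and washed in dilute hypochlorite early in gastrulation. ZM embryos went through the same sterilization and then received, in their medium, a filtered extract of the intestinal contents of adult zebrafish, which holds no live bacteria but can hold fish molecules as well as bacterial ones. CV embryos were neither treated with antibiotic nor washed in hypochlorite, and they carried live microbes. The sterilization was therefore shared by GF and ZM, whereas what ZM and CV had in common was contact with gut or microbial molecules, by different routes. The labels tie no sample to a clutch, so that p-values measure the spread between these pools. Of the 32520 genes in the table, the 15904 with a mean of at least 1 FPKM (fragments per kilobase of transcript, scaled to a common number of mapped fragments, a level per transcript length) over the 9 samples were tested.

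A larval head at this stage holds dividing neural progenitors, newly formed neurons that extend axons, the eye with its lens, jaw cartilage, skin and blood. Progenitors copy DNA with the MCM helicase and depend on chromatin remodelers, splicing factors and transport through nuclear pores, and Wnt, Notch and Hedgehog signals decide when they leave the cell cycle. Lens fibre cells, in contrast, stop dividing, lose their nuclei and fill with crystallins. Metabolites made by gut bacteria, among them short-chain fatty acids, are known to reach host tissues and to act on receptors and on histone deacetylases. In RNA from whole heads, fewer cells of a type and less RNA per cell cannot be told apart.

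The labelled tissue was borne out by its markers. The pan-neuronal RNA-binding protein gene ELAVL3 lay at 29.7 to 41.9 FPKM in GF, 40.04 to 42.5 FPKM in ZM and 53.8 to 148.3 FPKM in CV, and lens crystallins were among the most abundant transcripts in every group. Transcripts used as markers of other organs were also present. The 32 matched markers of liver, gut, pancreas and yolk summed to 828 to 1489 FPKM in GF, 799 to 1698 FPKM in ZM and 667 to 1933 FPKM in CV. GF lay outside the range of the others at 0 of the 18 that were tested. By limma 1 of the 18 was higher and 0 were lower with an unadjusted p below 0.05. The samples differed in ways that the groups do not explain. FPKM values summed to between 587431 (CV 3) and 705494 (ZM 2), and the exact read depth of each sample was unknown. By the root mean square difference in log2(FPKM + 1) over the tested genes, the sample nearest to CV 2 was GF 1 (0.317), followed by GF 2 (0.337), while CV 1 (0.519) and CV 3 (0.612) were farther away. GF 3 lay nearest to ZM 3 (0.305), against 0.491 to GF 1 and 0.428 to GF 2.

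The fit compared the mean of GF with the average of the ZM and CV means, each given equal weight, on log2(FPKM + 1). With limma and Benjamini-Hochberg adjustment over all 15904 genes, 1 gene fell in GF at an adjusted p under 0.05, which is 0.00629% of the genes tested, and 0 rose (0.0%). An unadjusted p below 0.05 was reached by 1746 genes (11.0%) on the lower side in GF and by 586 (3.68%) on the higher side. The next smallest adjusted p was 0.233, shared by many genes. The spread within CV bore on these counts. When CV 2 was left out, 1167 genes fell and 84 rose at an adjusted p under 0.05, and among the 87 genes named by rule 71 more passed there that did not pass with all samples. No other omission of a single sample gave more than 1 gene. Apart from the 1 gene that passed, the genes described here are therefore given by their values, and by whether the GF samples overlapped with the others.

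The gene that fell was ZBTB18 (ENSDARG00000028228), a zinc-finger repressor of transcription that in mouse is needed for neurons of the cerebral cortex to form and migrate. It was measured at 2.78, 2.60 and 1.86 FPKM in the GF samples, at 15.4, 14.7 and 8.09 FPKM in the ZM samples and at 17.0, 16.5 and 17.2 FPKM in the CV samples. All 3 GF samples lay far below every other sample, ZM 3 was the lowest of the 6, and the 3 CV samples were within 1 FPKM of each other. The log2 difference between GF and the average of both other groups was -2.19 ± 0.20 (SE; limma, adjusted p = 0.00867). By limma it was -1.97 against ZM (adjusted p = 0.0848) and -2.40 against CV (adjusted p = 0.0138). The call thus did not hold against ZM alone at an adjusted p under 0.05, and the 3 GF samples enter both differences. The call was lost when GF 1 (adjusted p = 0.0718), GF 2 (0.0958), GF 3 (0.0853) or CV 1 (0.0539) was left out, while the log2 difference stayed between -2.32 and -2.06.

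A second description used no model and counted the genes at which the 3 GF samples lay on one side of all 6 others. GF lay below all ZM and CV samples at 907 genes (5.7% of those tested) and above all of them at 312 genes (1.96%), so that 74.4% of the 1219 genes outside the range (7.66%) were on the low side. This split depended on the scaling of the samples. It was 84.7% when samples were set to an equal sum, 66.1% after median-of-ratios scaling and 54.8% after quantile normalization. It also depended on single samples. The low genes numbered 1602 without GF 1, and the high genes numbered 1131 without GF 2, 675 without ZM 3, 578 without GF 3 and 577 without CV 2, so that the share on the low side was 49.6% without GF 2. Over all tested genes the median log2 difference was near 0 (-0.004), and the GF mean was the lower one at 50.7% of them.

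The genes on the low side and those on the high side differed in where ZM stood. Among the 907 low genes the median log2 difference was -0.71, made up of -0.39 against ZM and -1.03 against CV, and CV was the farther group at 95.8% of them. The median level of these genes was 2.15 to 2.43 FPKM in the GF samples, 3.18 to 3.86 FPKM in the ZM samples and 3.70 to 8.68 FPKM in the CV samples, in which CV 2 was the lowest. Among the 312 high genes the median difference was 0.35, made up of 0.34 against ZM and 0.36 against CV, and CV was the farther group at 58.3%. Their median level was 13.7 to 15.2 FPKM in GF, 10.8 to 11.7 FPKM in ZM and 9.76 to 11.7 FPKM in CV.

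Many of these genes were only just outside the range. The median gap on the log2 scale between the nearest GF sample and the nearest other sample was 0.10 for the low genes and 0.05 for the high genes. The nearest other sample was ZM 3 at 358, ZM 1 at 325 and ZM 2 at 112 of the low genes, and a CV sample at the rest, mostly CV 2 (89 genes). At the high genes CV 2 was the nearest in 120 cases and ZM 3 in 98. The 2 sets also differed in level. Of genes with a mean of 1 to 5 FPKM 7.51% were in the low set and 1.198% in the high set, whereas of genes at 100 FPKM or more 1.36% were in the low set and 6.25% in the high set.

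The 12 low genes named by rule were those with the largest difference from whichever of ZM or CV was nearer, and they covered DNA replication, chromatin and RNA. Apart from ZBTB18, each had an adjusted p of 0.233. MCM7 and MCM4 encode subunits of the helicase that unwinds DNA for replication. MCM7 was at 18.2, 16.1 and 14.3 FPKM in GF, against 39.4, 48.5 and 25.8 FPKM in ZM and 89.2, 29.1 and 84.4 FPKM in CV, a log2 difference of -1.49 ± 0.33 (SE). MCM4 was at 8.59, 10.2 and 9.01 FPKM in GF, against 21.2, 21.6 and 18.3 FPKM in ZM and 37.6, 16.4 and 40.8 FPKM in CV, a log2 difference of -1.31 ± 0.25. For both, CV 2 was closer to ZM than to the other CV samples.

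SMARCC1 and SMARCE1 are subunits of the BAF complex, which moves nucleosomes and has a form specific to neural progenitors. SMARCE1 was at 16.3, 13.6 and 16.8 FPKM in GF, against 26.9, 42.7 and 27.7 FPKM in ZM and 72.6, 36.8 and 106.6 FPKM in CV (log2 difference -1.50 ± 0.29). SMARCC1 was at 2.76, 2.66 and 2.04 FPKM in GF, against 5.74, 9.52 and 4.09 FPKM in ZM and 19.8, 6.64 and 29.9 FPKM in CV (-1.66 ± 0.39). The GF samples of each gene stayed within a narrow band, and the exposed samples ranged widely above it.

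RNA-related genes made up much of the rest. srsf10b, an SR splicing factor, was at 5.23, 6.50 and 6.17 FPKM in GF, against 10.5, 18.4 and 13.5 FPKM in ZM and 29.7, 10.1 and 29.4 FPKM in CV (log2 difference -1.37 ± 0.31). SF3B4, a subunit of the U2 small nuclear ribonucleoprotein, was at 3.84, 4.47 and 3.39 FPKM in GF, against 7.98, 13.3 and 5.79 FPKM in ZM and 26.0, 7.54 and 21.5 FPKM in CV. nolc1, a nucleolar phosphoprotein, varied little in GF (1.74, 1.66 and 1.68 FPKM) and was at 4.06, 6.22 and 3.08 FPKM in ZM and 10.2, 3.27 and 10.2 FPKM in CV. The RNA helicase gene ddx3xb (-1.55 ± 0.34) and the stress granule gene G3BP2 (-1.46 ± 0.32) had the same order of groups, and G3BP2 is a symbol shared by 2 gene IDs.

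Single samples stood differently at eif5b and proza. eif5b, a GTPase that joins the ribosomal subunits at the start of translation, was at 14.0, 17.3 and 14.1 FPKM in GF, against 39.0, 19.3 and 47.9 FPKM in ZM and 68.4, 36.3 and 45.5 FPKM in CV, so that ZM 2 lay close to GF. proza, named for protein Z, a vitamin K-dependent plasma protein, was at 2.19, 1.55 and 2.30 FPKM in GF, against 4.73, 4.78 and 7.43 FPKM in ZM and 12.9, 7.44 and 8.08 FPKM in CV, with a log2 difference of -1.45 ± 0.21. At proza CV 2 did not stand apart from CV 3.

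**Figure D1:**
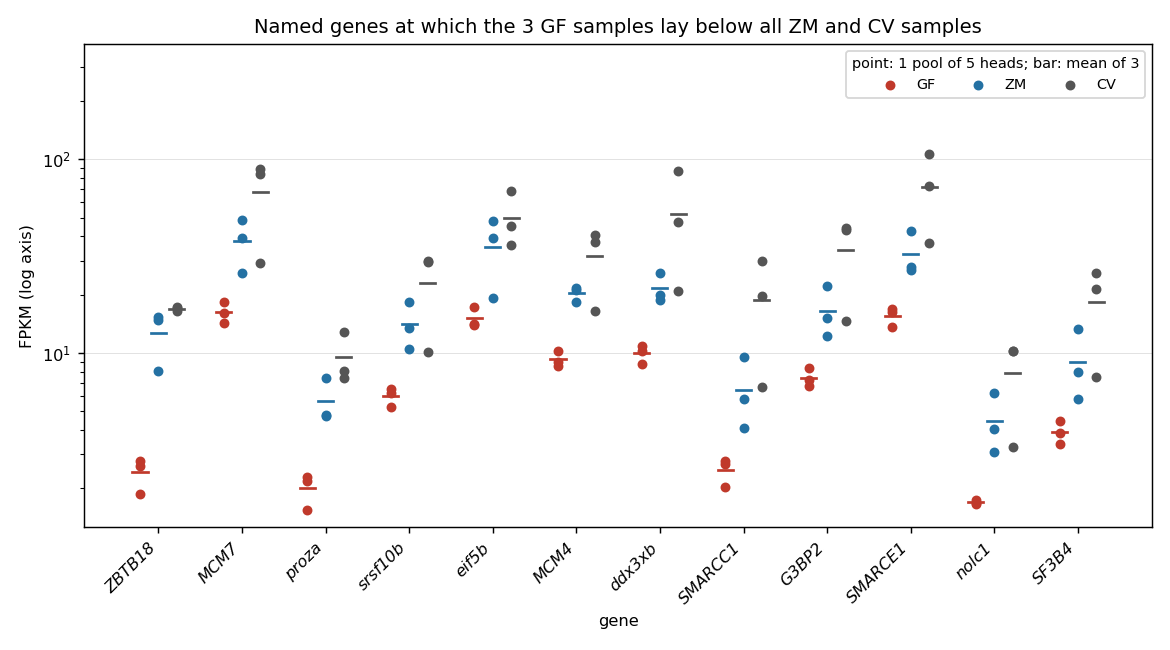
FPKM on a log axis of the 12 named genes at which GF lay below all other samples, with GF, ZM and CV from left to right at each gene. Each point is 1 pool of 5 heads and each bar is the mean of 3. At ZBTB18 the GF samples lie between 1.86 and 2.78 FPKM and the others between 8.09 and 17.2 FPKM, and at most of the other genes the lowest CV point is CV 2.

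The 12 high genes named by rule came largely from the lens, the pituitary and mitochondria, and each had an adjusted p of 0.233. FUNDC2, which encodes a protein of the outer mitochondrial membrane, was at 46.8, 46.4 and 43.5 FPKM in GF, against 22.9, 13.0 and 23.4 FPKM in ZM and 9.28, 22.3 and 15.9 FPKM in CV. This was the widest separation on the high side, with a log2 difference of 1.38 ± 0.25 and a gap of 0.86 to the nearest sample. COX4I2, an isoform of a cytochrome c oxidase subunit, was at 23.8, 14.1 and 17.8 FPKM in GF, against 11.6, 10.6 and 10.2 FPKM in ZM and 8.06, 12.9 and 9.48 FPKM in CV (0.76 ± 0.18).

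gh1 and smtlb encode pituitary hormones of the growth hormone family. Growth hormone, gh1, was at 3.18, 3.63 and 3.24 FPKM in GF, against 0.75, 1.46 and 1.45 FPKM in ZM and 1.39, 2.47 and 0.61 FPKM in CV (log2 difference 0.93 ± 0.23). smtlb, somatolactin beta, a hormone found in fish, was at 4.37, 5.44 and 7.13 FPKM in GF, against 3.11, 1.45 and 1.59 FPKM in ZM and 2.08, 3.48 and 1.34 FPKM in CV (1.09 ± 0.25). These are low levels in a whole head, in which the pituitary is a small gland.

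Lens genes were the most frequent, with the gamma M crystallins crygm5, crygm2d10, crygm2d2 and crygm2d3 among the 12. crygm5 was at 7.79, 4.95 and 5.91 FPKM in GF, against 1.95, 1.05 and 4.06 FPKM in ZM and 2.57, 3.53 and 1.27 FPKM in CV (log2 difference 1.14 ± 0.30). plaat1, a phospholipase that breaks down organelles in zebrafish lens fibres, was at 21.3, 17.0 and 17.9 FPKM in GF, against 9.49, 7.74 and 10.6 FPKM in ZM and 10.2, 16.4 and 7.397 FPKM in CV (0.84 ± 0.21). dnase1l1l, a nuclease of the DNase I family, was at 23.4, 20.8 and 24.7 FPKM in GF, against 13.2, 11.3 and 17.6 FPKM in ZM and 12.2, 17.1 and 12.3 FPKM in CV (0.70 ± 0.16). The remaining genes were the tetraspanin tspan33b (0.80 ± 0.20) and si:ch211-209m20.7 (0.85 ± 0.21). On the high side CV 2 was in most cases the CV sample nearest to GF.

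**Figure D2:**
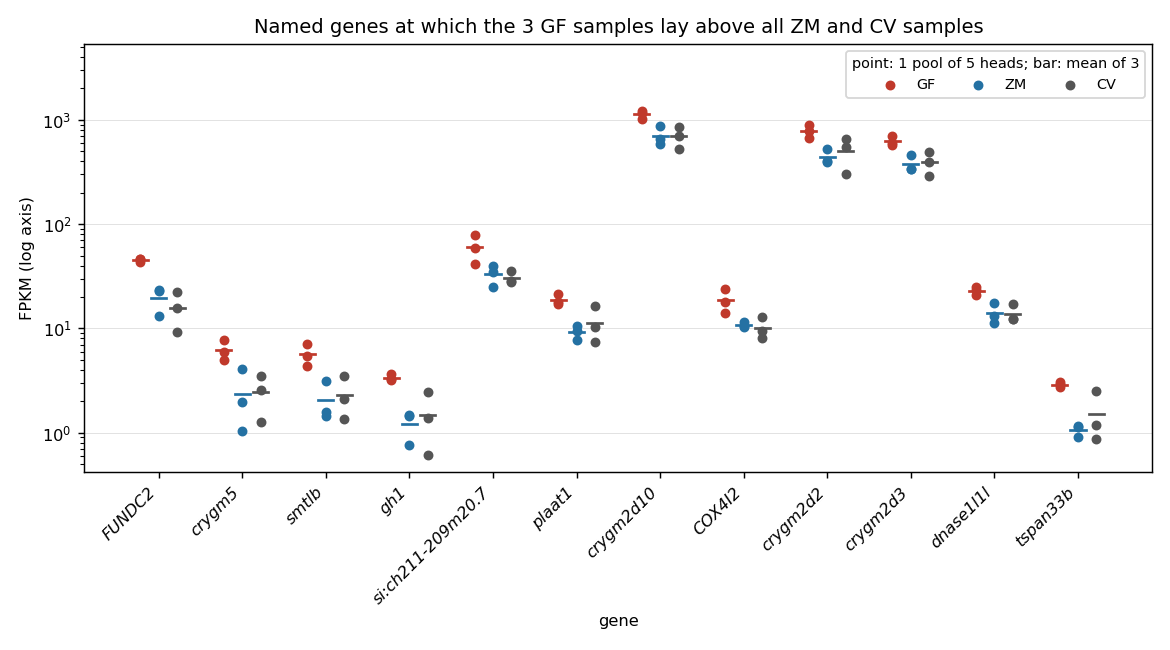
FPKM on a log axis of the 12 named genes at which GF lay above all other samples, with GF, ZM and CV from left to right at each gene. Each point is 1 pool of 5 heads and each bar is the mean of 3. FUNDC2 has the widest separation, with GF between 43.5 and 46.8 FPKM and the others between 9.28 and 23.4 FPKM.

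The lists show which kinds of gene were low. Leaving out a sample can only add genes outside the range, and where it raised a count on the low side of 10 or more by over 1.5 times the sample is named. Of the 30 tested nucleoporins, which build the nuclear pore, GF lay below all 6 others at 13 (43.3%, against 5.7% of all genes) and above at 0, and their median log2 difference was -0.51. NUP133, a scaffold nucleoporin, was at 5.59, 5.34 and 4.66 FPKM in GF, against 7.47, 8.08 and 8.30 FPKM in ZM and 13.7, 8.48 and 16.3 FPKM in CV (-0.83 ± 0.18). pom121, which anchors the pore in the membrane, was at 0.78, 1.03 and 0.63 FPKM in GF, against 1.84, 2.36 and 1.90 FPKM in ZM and 3.36, 1.78 and 4.68 FPKM in CV (-0.96 ± 0.21). The ZM samples sat between GF and the 2 higher CV samples at both genes. Both gene IDs named TPR, a protein of the nuclear basket, were on the low side as well, with log2 differences of -1.09 and -1.06.

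The carriers that move cargo through the pore had the same order in their medians. GF lay below all others at 9 of 33 importins and exportins (27.3%, against 5.7% of all genes) and above at 0. The median was -0.28, with -0.18 against ZM and -0.33 against CV. Summed over the 36 matched genes the order was another, with means of 1312 FPKM in GF, 1497 FPKM in ZM and 1352 FPKM in CV. KPNB1, importin beta, was at 4.82, 4.49 and 4.995 FPKM in GF, against 9.15, 14.5 and 7.71 FPKM in ZM and 26.9, 8.70 and 28.5 FPKM in CV (-1.37 ± 0.33). IPO9 and XPO7, an importin and an exportin, had log2 differences of -0.96 ± 0.21 and -0.83 ± 0.22.

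Among the lists, that of chromatin remodelers had the most members on the low side. GF lay below the others at 20 of 55 chromatin remodelers (36.4%), 12 of 49 genes for histone methylation (24.5%) and 10 of 39 for histone acetylation (25.6%). The share of all genes was 5.7%. GF lay above the others at 0 in each list. The medians were -0.33, -0.45 and -0.34, and without GF 1 the 12 became 21. The histone acetylation median changed sign when the filter was raised to 5 FPKM. Under the other scalings the 20 became 15 to 18, the 12 became 11 to 15 and the 10 became 8 to 11. Beyond SMARCC1 and SMARCE1, the remodelers included SMARCA4, the ATPase of the BAF complex, at 10.03, 9.46 and 10.04 FPKM in GF, against 14.0, 20.6 and 14.1 FPKM in ZM and 41.6, 15.7 and 51.4 FPKM in CV (-1.14 ± 0.31). MTA3, of the NuRD complex, was at 5.10, 4.39 and 3.64 FPKM in GF, against 6.33, 8.55 and 6.07 FPKM in ZM and 12.6, 7.19 and 15.3 FPKM in CV. CHD7, whose human gene is mutated in CHARGE syndrome, had a log2 difference of -0.94 ± 0.27.

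Among the histone-modifying enzymes, EED, a core subunit of Polycomb repressive complex 2, was at 11.2, 13.0 and 7.82 FPKM in GF, against 15.9, 18.8 and 14.0 FPKM in ZM and 34.7, 16.9 and 26.0 FPKM in CV (-0.88 ± 0.22). PRMT5, an arginine methyltransferase, was at 16.3, 15.7 and 12.2 FPKM in GF, against 18.8, 19.0 and 17.5 FPKM in ZM and 27.6, 22.1 and 26.1 FPKM in CV (-0.53 ± 0.13). KDM5A, a histone demethylase, was below 1 FPKM in all 3 GF samples and between 1.14 and 6.23 FPKM in the others. The scaffold of the Sin3 deacetylase complex, SIN3A (ENSDARG00000059812), was at 1.99, 2.72 and 2.24 FPKM in GF, against 3.62, 4.03 and 3.40 FPKM in ZM and 7.25, 3.70 and 7.66 FPKM in CV. Its partner SAP130 (-0.995 ± 0.22) and the CoREST subunit RCOR2 (-0.98 ± 0.27) were also on the low side, as were both IDs of the acetyltransferase EP300 (-0.75 and -0.66). SAP130, SIN3A and EP300 are each shared by 2 gene IDs.

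**Figure D3:**
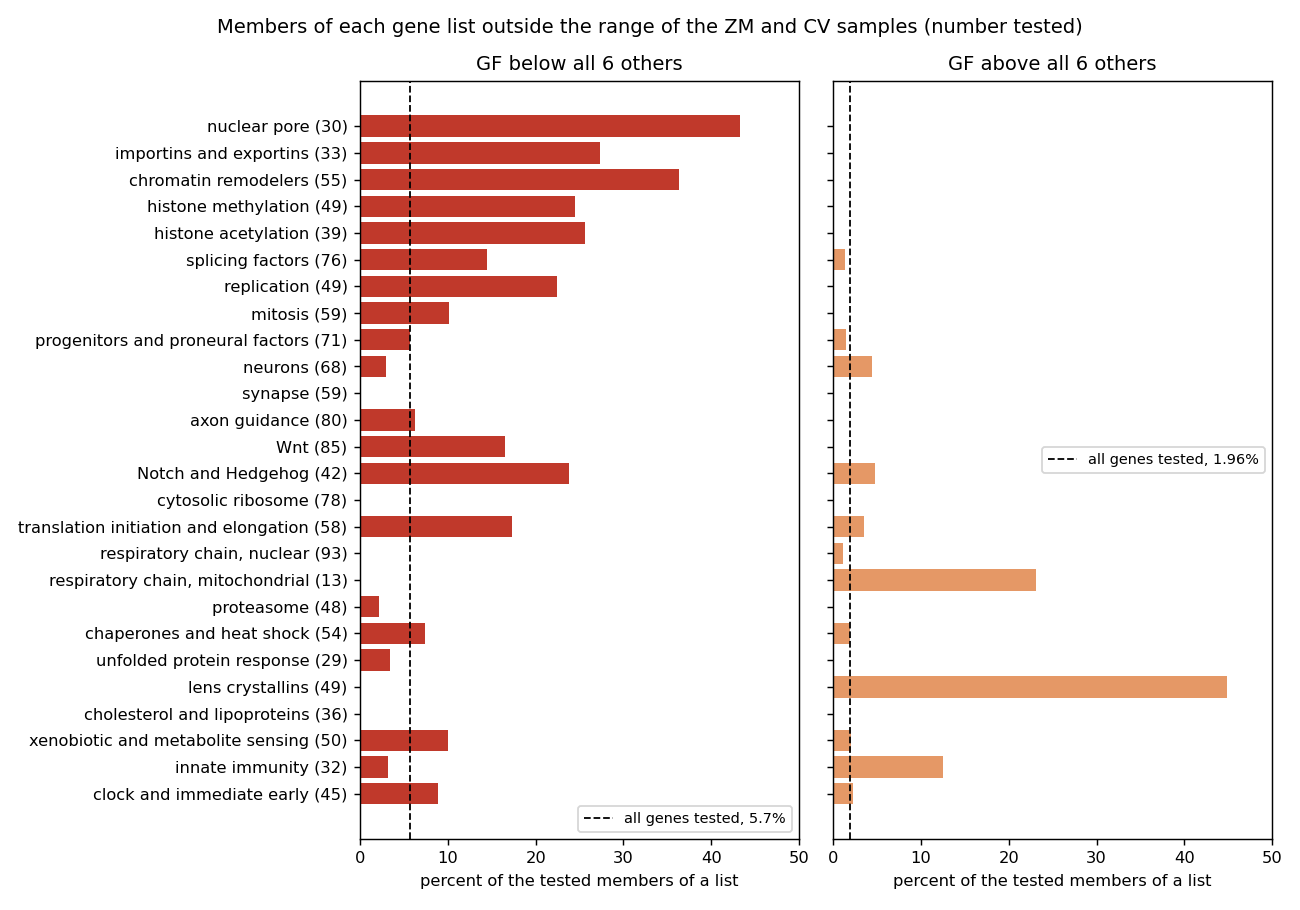
Share of the tested members of each of 26 gene lists at which GF lay below (left) or above (right) all ZM and CV samples, in percent. The dashed lines are the shares among all 15904 genes, 5.7% and 1.96%. The bars are longest for nuclear pore (43.3%) and chromatin remodelers (36.4%) on the left and for lens crystallins (44.9%) on the right.

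Splicing factors were spread more widely. GF lay below the others at 11 of 76 (14.5%, against 5.7% of all genes) and above at 1 (1.32%, against 1.96%). The median was -0.24. The 11 became 21 without GF 1 and 17 without ZM 1, and 12 to 16 under the other scalings. ewsr1b, an RNA-binding protein of the FET family, was at 42.8, 34.2 and 35.2 FPKM in GF, against 50.3, 60.7 and 53.6 FPKM in ZM and 121.1, 61.3 and 133.2 FPKM in CV (-0.97 ± 0.22). SYNCRIP, a heterogeneous nuclear ribonucleoprotein, was at 26.0, 23.9 and 24.2 FPKM in GF, against 41.4, 53.1 and 35.9 FPKM in ZM and 117.9, 42.9 and 113.0 FPKM in CV (-1.24 ± 0.29). The exception was srsf10a, the paralog of srsf10b, at 14.7, 9.47 and 10.3 FPKM in GF, against 7.56, 7.07 and 9.20 FPKM in ZM and 7.14, 9.30 and 9.34 FPKM in CV. The 2 srsf10 genes thus lay on opposite sides, with log2 differences of -1.37 and 0.42, and the gap at srsf10a was small.

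Replication genes did not follow the order GF, ZM, CV. GF lay below all others at 11 of 49 (22.4%, against 5.7% of all genes) and above at 0. Of the 49, 46 had a lower mean in GF, but the median was -0.46 against ZM and 0.03 against CV. MCM2 was at 35.8, 32.6 and 26.8 FPKM in GF, against 61.0, 44.3 and 39.1 FPKM in ZM and 41.7, 39.96 and 37.6 FPKM in CV. MCM3 was at 32.4, 32.9 and 26.2 FPKM in GF, against 56.7, 43.7 and 38.8 FPKM in ZM and 43.6, 38.3 and 43.9 FPKM in CV (-0.52 ± 0.14). For these helicase subunits ZM was the higher of both exposed groups, unlike for MCM4 and MCM7. POLD1, the catalytic subunit of DNA polymerase delta, was at 14.2, 12.9 and 13.7 FPKM in GF, against 19.7, 17.3 and 18.7 FPKM in ZM and 19.0, 17.99 and 22.5 FPKM in CV (-0.46 ± 0.11). PCNA, the sliding clamp of replication, overlapped, at 489.6, 427.6 and 433.1 FPKM in GF, against 854.0, 690.5 and 525.3 FPKM in ZM and 415.2, 466.7 and 362.3 FPKM in CV. At PCNA, then, GF was set apart from ZM but not from CV.

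The mitosis list had medians of a similar form and smaller size. GF lay below the others at 6 of 59 genes (10.2%, against 5.7% of all genes) and above at 0. The count of 6 became 3 to 6 under the other scalings. The median was -0.13, made up of -0.20 against ZM and -0.01 against CV. bub1, a kinase of the spindle checkpoint, was at 1.40, 1.13 and 1.26 FPKM in GF, against 2.78, 3.63 and 2.24 FPKM in ZM and 8.32, 2.85 and 12.5 FPKM in CV (-1.28 ± 0.33). SMC4, of condensin, and anln, anillin of the cleavage furrow, had log2 differences of -1.06 ± 0.29 and -0.57 ± 0.19. At bub1, SMC4 and anln CV was the farther group, unlike for the median of the list. For bub1 the difference was -0.76 against ZM and -1.80 against CV.

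The sample medians of the lists show the same contrast. Relative to each gene's mean over the 9 samples, the median replication gene was at -0.10, -0.23 and -0.21 in GF, 0.50, 0.31 and 0.02 in ZM and -0.15, -0.03 and -0.26 in CV on the log2 scale. The median nucleoporin was at -0.18, -0.36 and -0.49 in GF, -0.05, 0.03 and -0.02 in ZM and 0.39, 0.05 and 0.65 in CV. CV 2 was near 0 in both lists.

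**Figure D4:**
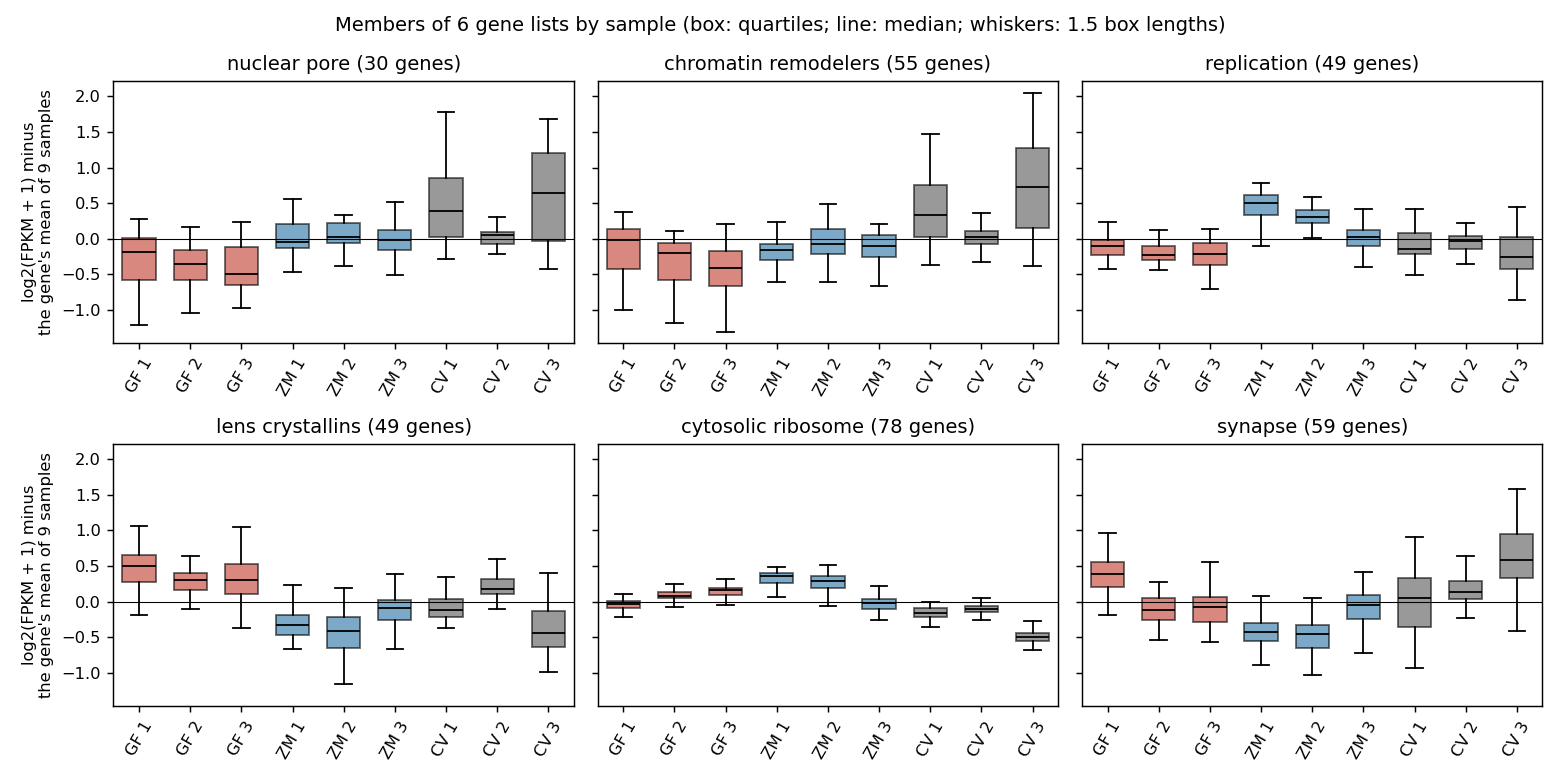
Members of 6 gene lists by sample, as log2(FPKM + 1) minus each gene's mean over the 9 samples, with GF, ZM and CV samples from left to right. Boxes are quartiles over genes and the line is the median. The median crystallin lies at 0.30 to 0.50 in GF and at -0.45 to 0.18 in the other samples, and the median nucleoporin is negative in the 3 GF samples.

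In the Wnt list GF lay below the others at 14 of 85 genes (16.5%, against 5.7% of all genes) and above at 0, with a median of -0.17. Without GF 1 the 14 became 27, without GF 2 the 0 became 6, and the median lay between -0.30 and -0.10 as single samples were left out. Beta-catenin, the effector of the pathway, has 2 genes in zebrafish. CTNNB1 was at 33.2, 36.4 and 31.4 FPKM in GF, against 48.0, 75.3 and 46.8 FPKM in ZM and 164.4, 62.6 and 169.5 FPKM in CV (-1.26 ± 0.30). ctnnb2 was at 18.7, 18.3 and 16.1 FPKM in GF, against 28.2, 38.5 and 24.4 FPKM in ZM and 70.7, 32.1 and 70.8 FPKM in CV (-1.15 ± 0.25). Both thus had GF lowest, ZM and CV 2 in the middle and CV 1 and CV 3 highest. The co-receptor LRP6 (-1.10), the kinase GSK3B (-1.02), the repressor TCF7L1 (-1.13) and the corepressor TLE3 (-1.15, a symbol of 2 gene IDs), which act at the membrane, in the destruction complex and on DNA, were also on the low side. These members include activators and inhibitors of the pathway.

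In the Notch and Hedgehog list GF lay below the others at 10 of 42 genes (23.8%, against 5.7% of all genes). It lay above at 2 (4.76%, against 1.96%), and the median was -0.36. The 10 became 17 without ZM 3. CDON and BOC, co-receptors for Hedgehog, had log2 differences of -1.10 ± 0.26 and -1.04 ± 0.25. CDON was at 4.83, 5.45 and 4.73 FPKM in GF, against 7.02, 11.6 and 7.34 FPKM in ZM and 16.6, 9.97 and 26.8 FPKM in CV. The ligand went the other way at 1 of its gene IDs. SHH (ENSDARG00000068567) overlapped, at 9.05, 8.83 and 8.88 FPKM in GF, 6.998, 6.81 and 10.2 FPKM in ZM and 11.0, 8.68 and 11.0 FPKM in CV, whereas SHH (ENSDARG00000038867) was at 16.2, 12.8 and 14.0 FPKM in GF, against 11.3, 11.1 and 11.7 FPKM in ZM and 10.7, 10.2 and 9.27 FPKM in CV (0.38 ± 0.12). Of the receptors, 1 of the 2 IDs named NOTCH1 lay outside the range, with 1.13, 1.11 and 1.15 FPKM in GF and 1.25 to 9.30 FPKM in the others.

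Of 80 axon guidance genes, 70 had a lower mean in GF. By limma 24 were lower and 0 higher with an unadjusted p below 0.05 (11.0% and 3.68% of all genes). GF lay below all other samples at 5 (6.25%), a share near the 5.7% of all genes. The 5 became 17 without GF 1, 8 without ZM 1 and 9 without ZM 3. The median log2 difference was -0.34, between -0.47 and -0.18 as single samples were left out, and was made up of -0.06 against ZM and -0.66 against CV. CV 3 was the highest sample, with the median gene at 0.98 above its mean over the 9 samples, against 0.18 in CV 1 and 0.17 in CV 2. ephb4a and ephb4b, Eph receptors known for vessel patterning, had log2 differences of -1.01 ± 0.27 and -0.87 ± 0.24, and the semaphorin SEMA5A one of -0.65 ± 0.21.

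In the lists of cell identity, GF lay below the others at 4 of 71 progenitor and proneural factors (5.63%, against 5.7% of all genes), ZBTB18 among them. It lay above at 1 (1.41%, against 1.96%). By limma 14 of the 71 were lower and 2 higher with an unadjusted p below 0.05 (11.0% and 3.68% of all genes). Of 68 neuronal genes GF lay below the others at 2 (2.94%, against 5.7% of all genes) and above at 3 (4.41%, against 1.96%). By limma 10 of the 68 were lower and 6 higher with an unadjusted p below 0.05 (11.0% and 3.68% of all genes). Without GF 1 the low members were 12 and 9 in these lists, and without GF 2 the high neuronal members were 10. PAX7 (ENSDARG00000070818), a paired-box factor of the dorsal midbrain and neural crest, was at 1.07, 0.93 and 0.88 FPKM in GF, against 1.38, 1.63 and 1.33 FPKM in ZM and 2.08, 2.08 and 4.70 FPKM in CV. ID2, an inhibitor of proneural factors, was at 196.3, 166.4 and 178.6 FPKM in GF, against 120.8, 125.0 and 159.2 FPKM in ZM and 118.4, 164.3 and 121.5 FPKM in CV (0.43 ± 0.14). Among neuronal genes EBF2, a factor of early neurons, was on the low side (-0.80 ± 0.19), and STMN2 (ENSDARG00000033234), a regulator of microtubules in growing axons, on the high side (0.47 ± 0.14), as was DLX5, of forebrain interneurons (0.29 ± 0.10). PAX7 and STMN2 are each shared by 2 gene IDs. The median of the neuronal list was near 0 (-0.03) and changed sign when GF 3, ZM 3 or CV 3 was left out. Of 59 synaptic genes 0 lay outside the range in either direction. By limma 6 were higher and 0 lower with an unadjusted p below 0.05 (3.68% and 11.0% of all genes).

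The machinery of translation was split. The 78 cytosolic ribosomal proteins had log2 differences between -0.44 and 0.27 with a median of 0.12 (-0.11 against ZM and 0.32 against CV), and at 0 of them did GF lie outside the range. By limma, 1 was higher and 0 lower with an unadjusted p below 0.05. Among 58 translation factors, GF lay below the others at 10 (17.2%, against 5.7% of all genes) and above at 2 (3.45%, against 1.96%). The median of the list was 0.02 and changed sign with an equal sum or quantile normalization. EIF4G1, the scaffold of the cap-binding complex, was at 4.94, 4.76 and 3.28 FPKM in GF, against 7.18, 11.5 and 6.29 FPKM in ZM and 17.2, 8.51 and 18.8 FPKM in CV (-1.15 ± 0.26). EIF4B, which aids the helicase of that complex, was at 36.9, 40.8 and 30.3 FPKM in GF, against 46.2, 47.5 and 50.7 FPKM in ZM and 77.2, 55.5 and 83.3 FPKM in CV (-0.69 ± 0.15). The helicase itself, at eif4a1b, lay on the high side, at 297.6, 288.4 and 315.5 FPKM in GF, against 234.5, 242.5 and 284.4 FPKM in ZM and 252.6, 257.8 and 257.8 FPKM in CV (0.24 ± 0.10).

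The nuclear genes of the respiratory chain resembled the ribosomal proteins, with 80 of 93 higher in GF on average and only COX4I2 outside the range. Their median was 0.11, made up of -0.04 against ZM and 0.26 against CV. Of the 13 genes encoded by the mitochondrial genome, 11 had a higher mean in GF and the median was 0.20. On the high side 3 lay outside the range (23.1%, against 1.96% of all genes). MT-CO3, a subunit of cytochrome c oxidase, was at 6395, 6264 and 7071 FPKM in GF, against 5494, 5050 and 4444 FPKM in ZM and 5182, 6028 and 4424 FPKM in CV (0.37 ± 0.14, adjusted p = 0.257). MT-CYB was at 3812, 3515 and 3544 FPKM in GF, against 3193, 2865 and 2675 FPKM in ZM and 2937, 3175 and 2329 FPKM in CV (0.35 ± 0.13). The count of 3 depended on the scaling, since 0 to 2 of the 13 were outside the range under the other scalings.

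On the high side the list with the most members outside the range was that of lens crystallins and lens fibre genes. GF lay above all others at 22 of 49 (44.9%, against 1.96% of all genes) and below at 0, and 42 of the 49 had a higher mean in GF. The median was 0.64, with 0.71 against ZM and 0.56 against CV, so that both exposed groups were about equally far from GF. The 22 became 16 to 27 under the other scalings, 22 to 31 when single samples were left out and 30 without CV 2. crygm2d9 was at 712.6, 587.6 and 661.4 FPKM in GF, against 321.8, 310.8 and 355.6 FPKM in ZM and 412.0, 558.5 and 353.9 FPKM in CV (0.79 ± 0.15). crygmxl2 was at 681.0, 624.2 and 670.1 FPKM in GF, against 329.7, 309.3 and 422.5 FPKM in ZM and 431.3, 536.4 and 372.7 FPKM in CV (0.74 ± 0.14). CV 2 was the exposed sample nearest to GF for both.

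The gamma M crystallins are many near-identical genes in tandem, and how reads were divided between them can move single values. The pattern was not limited to them. CRYBA4, a beta crystallin, was at 1114, 1181 and 1372 FPKM in GF, against 705.8, 698.4 and 849.5 FPKM in ZM and 861.1, 922.0 and 664.6 FPKM in CV (0.65 ± 0.14). LIM2 (ENSDARG00000015445), a membrane protein of lens fibres, was at 275.1, 236.1 and 245.3 FPKM in GF, against 206.6, 193.6 and 189.4 FPKM in ZM and 192.7, 235.8 and 155.0 FPKM in CV, with CV 2 almost level with GF 2. LGSN, lengsin of the lens, had a log2 difference of 0.76. Other lens genes were lower in GF on average, among them CRYBB1 (-0.65), at 152.1, 192.0 and 195.4 FPKM in GF, 110.3, 94.0 and 233.6 FPKM in ZM and 755.7, 333.9 and 792.9 FPKM in CV. At CRYBB1 GF overlapped with ZM and lay below CV. Of the 25 tested markers of photoreceptors and retina, the neighbouring tissue, 17 had a higher mean in GF and the median log2 difference was 0.29 (0.29 against ZM and 0.27 against CV), on the same side as the crystallins. GF lay above the others at 1, GNGT2 (a symbol of 2 gene IDs), with almost no gap, and at 4 without GF 2. The summed level of the 37 matched markers was 404 to 606 FPKM in GF, 406 to 545 FPKM in ZM and 309 to 569 FPKM in CV. Whether the amount of lens or eye tissue in the cut heads had a part in these values was not tested.

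Genes that sense metabolites and foreign compounds were also examined. GF lay below the others at 5 of 50 (10%, against 5.7% of all genes; 8 genes without GF 1) and above at 1 (2%, against 1.96%), with a median of -0.08. nfe2l3, a transcription factor of the family that answers oxidative stress, was at 13.1, 15.5 and 14.0 FPKM in GF, against 24.4, 21.3 and 24.1 FPKM in ZM and 29.9, 22.2 and 21.9 FPKM in CV (-0.71 ± 0.13). It was nearly as far from ZM (-0.68) as from CV (-0.74), and CV 2 did not stand apart from CV 3. KEAP1 was at 2.49, 1.97 and 2.29 FPKM in GF, against 3.39, 3.87 and 2.79 FPKM in ZM and 6.81, 3.24 and 8.03 FPKM in CV. RARG, a retinoic acid receptor, was at 12.3, 10.1 and 9.69 FPKM in GF, against 13.9, 15.7 and 13.8 FPKM in ZM and 22.8, 20.1 and 38.2 FPKM in CV (-0.81 ± 0.19). The glutathione transferase gstp1.1 was the member on the high side (0.53).

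Of 72 innate immune genes, 32 had a mean of at least 1 FPKM and were tested. GF lay above the others at 4 (12.5%, against 1.96% of all genes) and below at 1 (3.13%, against 5.7%). nfkbiab, an inhibitor of NF-kappa-B that the factor itself induces, was at 65.3, 64.8 and 51.6 FPKM in GF, against 39.9, 46.5 and 38.8 FPKM in ZM and 38.5, 44.6 and 37.7 FPKM in CV (0.55 ± 0.12). NFKBIZ, another inducible regulator of NF-kappa-B, was the low member (-0.51 ± 0.18). At nfkbiab both exposed groups were at nearly the same level.

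Among stress and clock genes the heat shock gene hsp70.3 was at 2.35, 1.95 and 1.54 FPKM in GF, against 6.72, 4.01 and 2.73 FPKM in ZM and 10.8, 3.97 and 7.31 FPKM in CV (-1.13 ± 0.29). GF lay below the others at 4 of 54 chaperones (7.41%, against 5.7% of all genes) and above at 1 (1.85%, against 1.96%). The median of the list was 0.01, so that hsp70.3 was not typical of it. egr1, an immediate early gene induced by neuronal activity, was at 0.54, 0.51 and 0.62 FPKM in GF, against 0.84, 1.201 and 0.93 FPKM in ZM and 1.93, 1.24 and 3.50 FPKM in CV (-0.67 ± 0.21). In the clock and immediate early list GF lay below at 4 of 45 (8.89%) and above at 1 (2.22%), against 5.7% and 1.96% of all genes. For the proteasome (48 genes) and the unfolded protein response (29 genes) 1 member each lay outside the range, PSMD1 (-1.29 ± 0.32) and EIF2AK3 (-0.57 ± 0.24). Both were on the low side (2.08% and 3.45% of their lists, against 5.7% of all genes). Of 36 genes of cholesterol synthesis and lipoproteins, 0 lay outside the range. By limma 3 of the 36 were lower and 0 higher with an unadjusted p below 0.05 (11.0% and 3.68% of all genes).

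The 2 exposed groups did not stand on the same side of GF in every list. Nuclear pore, chromatin, splicing and signalling lists had GF below both groups, with CV the farther. Replication, mitosis and ribosomal protein lists had GF below ZM and near or above CV. Neuronal and synaptic lists had GF above ZM (medians of 0.21 and 0.40) and below CV (-0.31 and -0.20). By sample medians ZM 3 lay within the range of the GF samples in both lists. The median synaptic gene was at 0.39, -0.11 and -0.08 in GF and at -0.43, -0.46 and -0.05 in ZM, relative to its mean over the 9 samples. The synaptic median against both groups together changed sign when GF 1 was left out. Of the 26 lists, lens crystallins and the mitochondrial genome had medians of more than 0.1 against both groups. The same held for the markers of photoreceptors and retina (0.29 against ZM and 0.27 against CV) and of epidermis (0.13 and 0.35), and for 2 lists looked at later, pituitary hormones (0.35 and 0.45) and neuropeptides (0.12 and 0.24). Both differences use the 3 GF samples, so that they are not independent of each other.

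**Figure D5:**
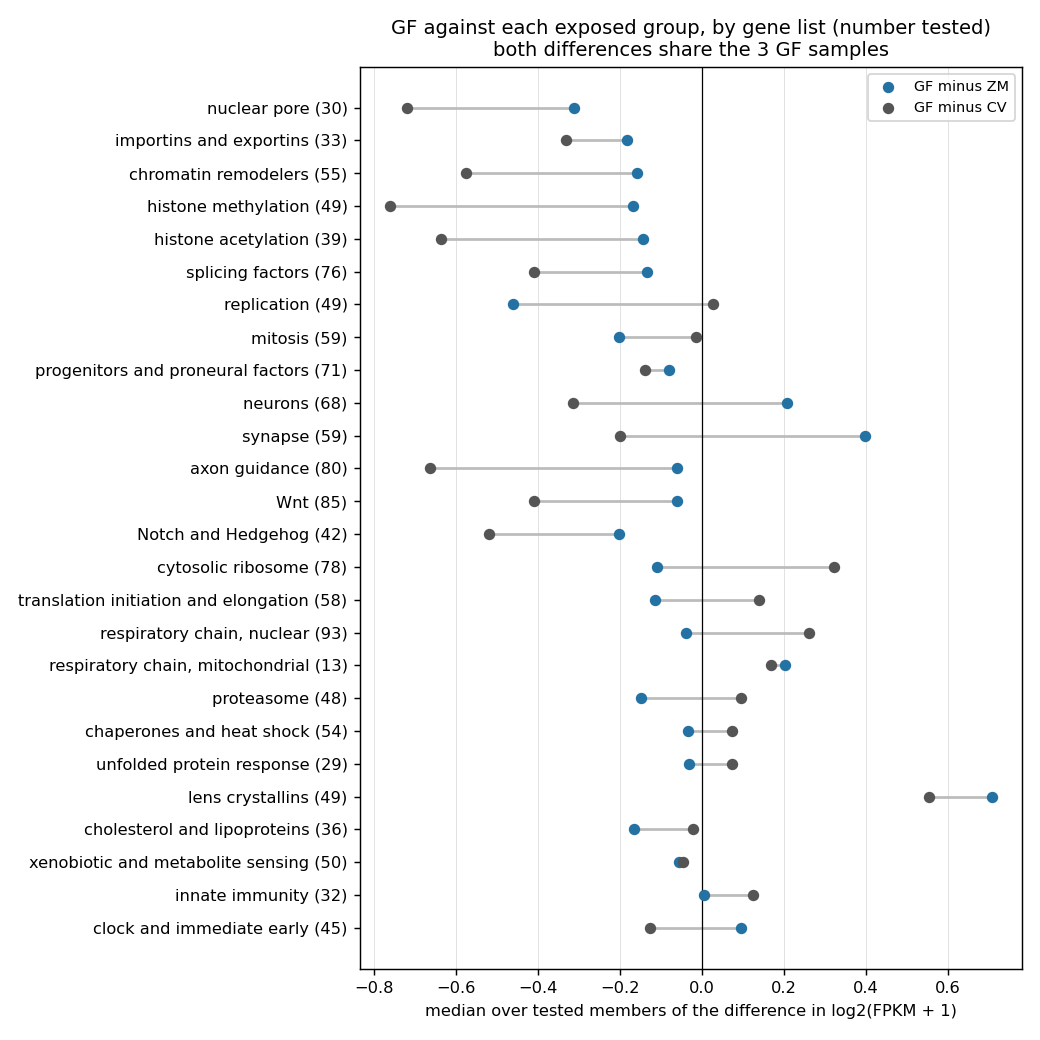
Median over tested members of GF minus ZM and of GF minus CV in log2(FPKM + 1), for each of 26 gene lists. Both differences share the 3 GF samples. The points lie on opposite sides of 0 for synapse (0.40 against ZM and -0.20 against CV), and for lens crystallins both lie to the right (0.71 and 0.56).

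Markers of other tissues in the head give the range of tissue composition. GF lay outside the range at 0 of 19 muscle and 0 of 11 erythrocyte markers, and by limma 0 and 1 of these had an unadjusted p under 0.05. Muscle markers summed to 13454 to 25803 FPKM in GF, 16218 to 21830 FPKM in ZM and 20911 to 24602 FPKM in CV. The 12 matched erythrocyte markers summed to 3196 to 3330 FPKM in GF, 3426 to 4210 FPKM in ZM and 1624 to 3935 FPKM in CV. At 12 markers of microglia and macrophages GF was outside the range at 0, and by limma 1 was lower with an unadjusted p below 0.05. Epidermal markers summed to 19333 to 23530 FPKM in GF, 17694 to 19656 FPKM in ZM and 16244 to 17356 FPKM in CV, with 19 of 22 higher on average in GF and krt91, a keratin, outside the range (0.36 ± 0.14). By limma 6 of the 22 were higher and 1 lower with an unadjusted p below 0.05 (3.68% and 11.0% of all genes).

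Of 25 tested cartilage and connective tissue markers, 17 had a lower and 8 a higher mean in GF. Their log2 differences ran from -1.11 to 1.56. GF lay below the others at 3 of 25 (12%, against 5.7% of all genes) and above at 1 (4%, against 1.96%). The 3 became 8 without ZM 1 and 5 without GF 1 or GF 3. By limma 10 were lower and 3 higher with an unadjusted p below 0.05 (11.0% and 3.68% of all genes). The median was -0.50 (-0.12 against ZM and -0.71 against CV). COL1A1, a chain of type I collagen, was at 27.4, 27.4 and 29.99 FPKM in GF, against 32.6, 88.0 and 33.5 FPKM in ZM and 96.5, 44.3 and 139.0 FPKM in CV (-1.11 ± 0.37). COL2A1 (ENSDARG00000011407), the cartilage collagen, was at 19.8, 16.0 and 21.8 FPKM in GF, against 22.0, 40.5 and 23.9 FPKM in ZM and 56.3, 29.96 and 89.9 FPKM in CV (-0.98 ± 0.31). ZM 1 and ZM 3 were close to GF at both. Summed, the 26 matched markers were at 1299 to 1549 FPKM in GF, 1140 to 1540 FPKM in ZM and 1377 to 2019 FPKM in CV (with CV 3 the highest of all 9 samples). Their part in the lower levels of other genes was not tested.

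Neural crest and pigment cells had 2 low members of 14 (14.3%, against 5.7% of all genes). SOX10, which specifies crest derivatives, was at 1.39, 1.58 and 1.32 FPKM in GF, against 2.32, 3.30 and 1.97 FPKM in ZM and 7.17, 2.58 and 7.91 FPKM in CV (-0.96 ± 0.27). TYRP1 (ENSDARG00000029204), an enzyme of melanin synthesis, was at 13.0, 13.3 and 13.8 FPKM in GF, against 23.9, 30.7 and 20.3 FPKM in ZM and 17.1, 18.7 and 31.9 FPKM in CV (-0.75 ± 0.20). At TYRP1 the GF samples were within 1 FPKM of each other, and ZM was the farther group. The endothelial scavenger receptor stab2 was the only one of 19 vessel markers outside the range (-0.31 ± 0.14), a share near that of all genes.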

How the data were processed

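Poly(A) RNA from heads of 3 GF, 3 ZM and 3 CV samples had been sequenced from directional libraries. The submitters' processing notes name FastQC 0.11.8, HISAT2 2.1.0, StringTie 1.3.4d, HTSeq 0.11.0, DESeq2 1.29.13 and the build GRCz11. The authors deposited 1 table of FPKM per gene and sample. FPKM is divided by transcript length and library size, so that the counts behind a value and the exact depth of each sample are unknown. Precision is given by the replicates alone. Columns were matched to samples by their labels. Symbols came from a table of gene IDs (29225 of 32520 IDs matched) and keep its capitals, and no coordinates, gene lengths or sequences were used.

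Genes whose FPKM averaged 1 or more across the 9 samples were fitted on log2(FPKM + 1) with limma 3.58.1 in R 4.3.3 (3 groups, moderated variance with a trend, two-sided). The contrast was GF minus the average of the ZM and CV means, with Benjamini-Hochberg adjustment over all 15904 genes. FPKM understates changes of low genes on this scale. Count models were not run. The scripts were tested on simulated data. Samples of GF and ZM with the same replicate number deviated together (correlations of 0.41, 0.47 and 0.62 over genes). Those of CV with GF or ZM had correlations of -0.06 to 0.49, highest at replicate 3, and a replicate block is an alternative.

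The comparison and its gene lists were chosen with earlier results of these data known. Named genes were up to 12 in each direction with GF outside the range of all other samples, ranked by the smaller of the GF minus CV and GF minus ZM differences, and up to 3 members of each list by unadjusted p among those outside the range. A further few members were named after their values were seen: ELAVL3, TPR, SMARCA4, CHD7, EP300, srsf10a, MCM2, MCM3, PCNA, LRP6, GSK3B, TCF7L1, SHH, NOTCH1, eif4a1b, CRYBA4, LIM2, LGSN, CRYBB1 and gstp1.1. Of 1530 list items, 84 had no match. Alternatives changed the pseudocount, the filter, the scaling, the model and the samples. Values of a few list members are not reported here.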

Additional observations from a re-analysis of the deposited data

How the results depend on the processing

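With all 28746 genes above 0 in any sample tested, 0 genes were lower in GF at an adjusted p under 0.05. There 964 were higher with an unadjusted p below 0.05, and ZBTB18 had a log2 difference of -2.19 (limma, adjusted p = 0.107). With a mean FPKM of at least 5, 8890 genes were tested. Of these, 776 were lower with an unadjusted p below 0.05, and GF lay below all others at 380. Both filters changed the number of genes tested, so that these counts are not directly comparable with those over 15904 genes. A model with 2 groups gave 1066 genes lower with an unadjusted p below 0.05. Asking for an unadjusted p under 0.05 against ZM and against CV alike left 131 lower and 154 higher. Genes higher with an unadjusted p below 0.05 numbered 295 when samples were set to an equal sum and 1164 with quantile normalization. GF lay above all others at 515 genes after median-of-ratios scaling, 152 with an equal sum and 672 after quantile normalization. Of the 907 low genes, 71.2 to 85.7% were shared with these scalings, and of the 312 high genes, 44.9 to 76.3%. A gap of at least 0.1, chosen after seeing the data, left 460 low and 77 high genes.

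Leaving out 1 sample at a time gave 0 to 1167 genes lower and 0 to 84 higher at an adjusted p under 0.05, 975 to 2370 lower and 200 to 1084 higher with an unadjusted p below 0.05, 940 to 1602 genes with GF below and 337 to 1131 with GF above (1131 without GF 2), and a ZBTB18 log2 difference of -2.32 to -2.06. The highest counts past the adjusted threshold came without CV 2. The groups share replicate numbers, but the labels do not say whether samples of the same number were paired. With the replicate block 1 gene was lower and 0 higher at an adjusted p under 0.05, 1917 and 673 at an unadjusted p, and ZBTB18 kept -2.19 (adjusted p = 0.00652), so that no call changed. With 3 pools a group and no counts, differences smaller than the spread within CV could not be resolved.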

Other observations

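Several gene groups were looked at after their values had been seen, and they are given as values with no test. Neuropeptide genes lay on the high side. Of 29 tested, GF lay above all ZM and CV samples at 6 (20.7%, against 1.96% of all genes) and below at 0, with a median log2 difference of 0.14. Without GF 2 the 6 became 12. gnrh3, the gonadotropin-releasing hormone of the olfactory and terminal nerve region in zebrafish, was at 6.13, 5.70 and 5.58 FPKM in GF, against 2.87, 3.81 and 3.14 FPKM in ZM and 3.31, 3.14 and 2.82 FPKM in CV, a log2 difference of 0.71. The 6 exposed samples were within 1 FPKM of each other, CV 2 included. CRH, the corticotropin-releasing hormone, was at 5.001, 4.01 and 4.14 FPKM in GF, against 2.60, 2.97 and 2.003 FPKM in ZM and 3.28, 3.77 and 2.11 FPKM in CV. tac3a, a tachykinin precursor, was at 3.96, 2.86 and 3.45 FPKM in GF, against 1.42, 2.07 and 2.54 FPKM in ZM and 1.58, 2.64 and 1.81 FPKM in CV. Of 15 pituitary hormone genes 7 were expressed highly enough to be tested. GF lay above all others at 3 of the 7 (42.9%, against 1.96% of all genes) and below at 0. The 3 were gh1, smtlb and the thyrotropin subunit TSHB (log2 difference 0.45).

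Ribosome biogenesis genes contrasted with the ribosomal proteins. GF lay below the others at 12 of 74 (16.2%, against 5.7% of all genes) and above at 1 (1.35%, against 1.96%). Of the 74, 71 had a lower mean in GF. Their median was -0.17, made up of -0.32 against ZM and 0.02 against CV, as in the replication list. FTSJ3 (-0.85), a factor in the processing of ribosomal RNA, and nolc1 (-1.28) were among them. In the list of RNA polymerase II, capping, 3′ end formation and export, GF lay below at 7 of 40 (17.5%, against 5.7% of all genes) and above at 0. Without GF 1 the 7 became 11. POLR2A, the largest subunit of the polymerase, was at 1.45, 1.21 and 1.32 FPKM in GF, against 2.17, 4.14 and 1.77 FPKM in ZM and 8.32, 2.74 and 9.75 FPKM in CV.

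Some list members under the filter of 1 FPKM also had GF outside the range, and 2 are named here after their values were seen. The Wnt inhibitor notum1b was at 0.45, 0.57 and 0.44 FPKM in GF, against 0.71, 0.97 and 0.87 FPKM in ZM and 1.18, 1.06 and 1.36 FPKM in CV. HDAC7 was at 0.26, 0.51 and 0.38 FPKM in GF, against 0.64, 1.201 and 0.56 FPKM in ZM and 1.38, 0.96 and 2.63 FPKM in CV.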
